A study of Homo sapiens with 8 samples.

Results

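The genes described here encode 5 proteins that bind double-stranded RNA (DDX58, IFIH1, DHX58, TLR3 and EIF2AK2), the adaptor MAVS and the transcription factors IRF1, IRF3 and IRF7. They were chosen by name: every gene probe of the one-color Agilent arrays annotated to 1 of these 9 genes was taken, which gave 14 of 34127 gene probes. STAT genes are not among the 9 and are described below with the other genes of the pathway. The arrays measured RNA of 2 established pancreatic adenocarcinoma cell lines, MIA PaCa-2 from a primary tumor and Capan-1 from a liver metastasis. Each line had 2 arrays of untransfected parental cells and 2 of cells given siRNA against HOXB7 at 10 nM, from which RNA was taken 48 hours later. The labels do not say which HOXB7 siRNA duplex was used, and no array of cells given a scrambled siRNA was analysed here, so that HOXB7 knockdown and the transfection of a short double-stranded RNA cannot be told apart. The labels do not say whether the 2 arrays of a group came from separate cultures, and p-values then measure only the spread between these arrays, which may be technical. The comparisons ask which sensors each line expressed and whether their transcripts differed after transfection.

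Cells detect double-stranded RNA in the cytoplasm with the helicases RIG-I (DDX58) and MDA5 (IFIH1), and with LGP2 (DHX58), a related helicase that modulates them. Toll-like receptor 3 (TLR3) detects it in endosomes, and PKR (EIF2AK2) is a kinase that, once bound to it, blocks translation through eIF2. RIG-I and MDA5 signal through MAVS on mitochondria, which leads to activation of IRF3 and IRF7 and to transcription of interferon genes. Interferon then acts through STAT factors and IRF9 on response elements in many promoters, and the sensor genes are themselves among the known targets. Short synthetic duplexes are loaded onto Argonaute proteins, the partners of Dicer, and can also be bound by the sensors.

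Each probe is a 60-base oligonucleotide on 1 spot. The IRF7 and IFIH1 probes are printed as examples of baseline differences between the lines, and the EIF2AK2 probes because they read different stretches of 1 gene. On the hg18 build used by the deposited files, the IFIH1 probe lies on the minus strand at chr2:162837052-162837111. EIF2AK2 probe 1 spans chr2:37189890-37195384 on the minus strand, far longer than the probe, so that it crosses at least 1 intron, and probe 2 lies at chr2:37222282-37222341. The IRF7 probe lies on the minus strand at chr11:602643-602702. An hg18 annotation was not used here, and exons are therefore not named.
IFIH1: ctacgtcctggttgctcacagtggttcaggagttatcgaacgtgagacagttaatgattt
EIF2AK2 probe 1: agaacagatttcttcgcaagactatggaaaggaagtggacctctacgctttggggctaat
EIF2AK2 probe 2: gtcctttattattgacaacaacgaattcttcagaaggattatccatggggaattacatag
IRF7: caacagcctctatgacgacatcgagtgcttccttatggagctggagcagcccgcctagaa

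Promoters were read from RefSeq (GRCh38.p14), 250 bases before to 50 after each gene's start, and entries were matched for 6 of the 9 genes (DDX58 under its current name RIGI, IFIH1, TLR3, EIF2AK2, MAVS and IRF1). The letters GAAA followed after any 2 bases by GAAA, a form of the interferon-stimulated response element, were searched on both strands. They were found in 3 of these 6 promoters, those of IFIH1, TLR3 and EIF2AK2, and in 3.57% of 35116 promoters. The letters TTCNNNGAA, which read the same on both strands and are a form of the STAT site, were found in 2 of the 6, those of TLR3 and IRF1, and in 7.66% of all promoters. The matches to the response element are shown in capitals in windows of 30 bases, to show the letters shared by promoters of sensors whose transcripts are compared below. The windows lie on the minus strand at chr2:162318821-162318850, where 2 matches overlap, and chr2:162318686-162318715 for IFIH1, on the plus strand at chr4:186069142-186069171 for TLR3, and on the minus strand at chr2:37156967-37156996 for EIF2AK2. A match describes the letters of the window and not a bound site.
IFIH1, overlapping pair: aattcgcTTTCCTTTTCTGTTTCccgcggt
IFIH1, near the start: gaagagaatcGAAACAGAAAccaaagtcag
TLR3: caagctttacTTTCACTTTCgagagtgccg
EIF2AK2: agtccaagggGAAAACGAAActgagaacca

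Values are given as the log2 processed signal minus the 75th percentile of the array, called the relative log2 level. Levels are set against each other only for the same probe, because probes differ in brightness for the same amount of RNA. Between 67.5% and 73.0% of gene probes were well above background on each array by the call of the scanner software. HOXB7, the target of the siRNA, had relative log2 levels of -4.82 and -4.09 on the parental MIA PaCa-2 arrays. The siRNA arrays of that line were not called well above background, with a measured log2 difference of -3.32 (adjusted p = 0.0173). Against the floor, the lowest signal that the software called well above background on an array, they were 2.85-fold lower. For Capan-1 it had -2.48 and -2.34 on the parental and -5.26 and -4.80 on the siRNA arrays, a difference of -2.62 (SE 0.261) with an adjusted p of 0.121. Of 10 epithelial and ductal markers, MIA PaCa-2 lacked signal well above background for CDH1, EPCAM and CEACAM6 in both conditions, whereas Capan-1 had all 10. Each cell line lies on a slide of its own, and within each slide the siRNA arrays hold positions 1 and 2 and the parental arrays positions 3 and 4. Slide and cell line, and position and treatment, cannot be told apart. By the paper's methods MIA PaCa-2 was kept in RPMI and Capan-1 in IMDM with more serum. Medium and cell line can therefore not be told apart either. Cells for transfection were plated in RPMI, and the medium of the parental cells on the arrays is not stated.

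All 14 probes were well above background on both parental arrays of MIA PaCa-2 and of Capan-1, as were 66.9% and 67.3% of all gene probes. The same call was made in both lines for at least 1 probe of each of 7 immune markers, among them CD3E and PTPRC. Of the 11 probes of these markers, 8 were called in parental MIA PaCa-2 and 7 in parental Capan-1. The signal summed over the whole marker list was 1298 to 1700 on the parental MIA PaCa-2 arrays and 483 to 595 on those of Capan-1. The part of these markers in the baseline differences was not tested. The call thus marks signal above the array background and not a level at which a gene is known to act. In parental cells, IRF7 and TLR3 were far lower in MIA PaCa-2 than in Capan-1 and IFIH1 was lower, whereas DDX58, DHX58 and EIF2AK2 were higher. After siRNA, TLR3 fell in MIA PaCa-2, the only 1 of 14 probes past the threshold there (1.92% of all 23717 probes tested, and 0.936% lower). Its signal after siRNA lay near the floor, and the call was lost under several processing settings given below. None of the 14 passed in Capan-1, where 1 of 23376 probes did (0.00428%), with 4 member probes against 12.4% of all probes at an unadjusted limma p under 0.05. These 4 were both DDX58 probes, IFIH1 and DHX58, all on the side of higher levels. Here and below, the threshold is a Benjamini-Hochberg adjusted p of 0.05 over all probes tested in a comparison with limma. An exact permutation test of 2 arrays against 2 cannot go below p = 0.333, so each call rests on the spread shared across probes and groups.

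**Figure D1:**
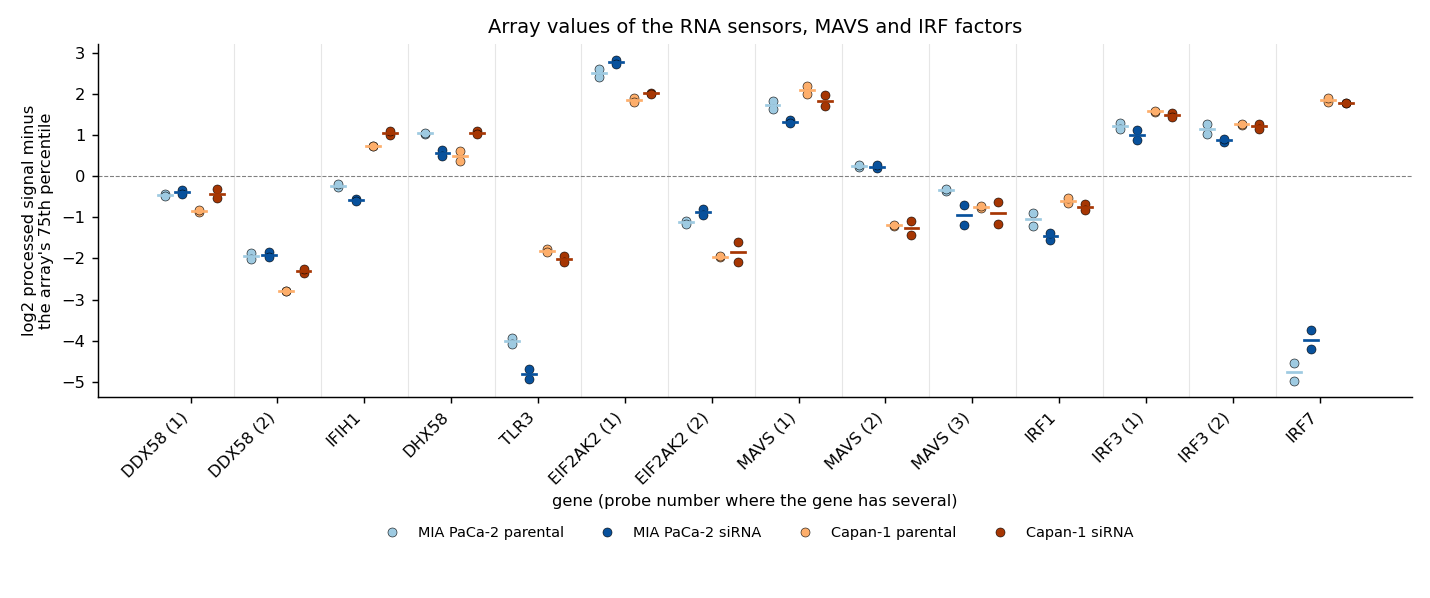
Relative log2 level (log2 processed signal minus the 75th percentile of the array) of the 14 probes on the 8 arrays. Points are arrays, short lines are means of 2, colors are the groups, and levels of different probes are not comparable; the IRF7 probe lies between -4.97 and -3.75 in MIA PaCa-2 and between 1.77 and 1.91 in Capan-1.

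DDX58, the sensor of RNA ends, was measured by 2 probes. Probe 1 had relative log2 levels of -0.42 and -0.48 on the parental MIA PaCa-2 arrays and -0.33 and -0.43 on its siRNA arrays. For Capan-1 the values were -0.86 and -0.83 on the parental arrays and -0.54 and -0.31 on the siRNA arrays. The siRNA and parental arrays of MIA PaCa-2 overlapped, whereas both siRNA arrays of Capan-1 were above both parental arrays. Probe 2 had -1.86 and -2.01 on the parental and -1.85 and -1.96 on the siRNA arrays of MIA PaCa-2, against -2.80 and -2.78 on the parental and -2.37 and -2.25 on the siRNA arrays of Capan-1. As for probe 1, the arrays overlapped in MIA PaCa-2 and the siRNA arrays of Capan-1 lay above its parental arrays. The siRNA difference in Capan-1 was 0.42 (SE 0.103, adjusted p = 0.275) for probe 1 and 0.49 (SE 0.0951, adjusted p = 0.217) for probe 2, and neither passed the threshold. Scaled to the spike-in probes, these differences were 0.13 and 0.20 (median of all probes tested -0.29). In MIA PaCa-2 the differences were 0.07 and 0.03, with 95% intervals from -0.18 to 0.33 and from -0.20 to 0.26. Both turned negative without scaling and with spike-in scaling (median of all probes tested -0.19 and -0.07). Parental MIA PaCa-2 had more DDX58 signal than parental Capan-1, by 0.39 (adjusted p = 0.0153) on probe 1 and 0.86 (adjusted p = 3.59e-04) on probe 2.

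IFIH1 encodes MDA5, the sensor of long duplexes. Its relative log2 level was -0.25 and -0.20 on the parental MIA PaCa-2 arrays and -0.55 and -0.59 on the siRNA arrays. Capan-1 had 0.74 and 0.75 on the parental arrays and 1.00 and 1.09 on the siRNA arrays. Both siRNA arrays were thus below both parental arrays in MIA PaCa-2 and above them in Capan-1. The siRNA difference was -0.35 for MIA PaCa-2 (SE 0.0791, adjusted p = 0.0902) and 0.30 for Capan-1 (SE 0.0791, adjusted p = 0.288), and neither passed the threshold. Scaled to the spike-in probes, the Capan-1 difference was 0.018 (median of all probes tested -0.29). Before transfection IFIH1 was lower in MIA PaCa-2 than in Capan-1, with a log2 difference of -0.97, or 1.96-fold (adjusted p = 9.29e-05).

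DHX58, which encodes LGP2, ran the opposite way at baseline. Its relative log2 level was 1.04 and 1.06 on the parental MIA PaCa-2 arrays and 0.64 and 0.50 on the siRNA arrays. In Capan-1 the parental arrays had 0.61 and 0.38 and the siRNA arrays 1.09 and 1.02. As for IFIH1, the siRNA arrays were below the parental arrays in MIA PaCa-2 and above them in Capan-1, with no overlap in either line. The siRNA difference was -0.48 for MIA PaCa-2 (SE 0.109, adjusted p = 0.0905) and 0.56 for Capan-1 (SE 0.109, adjusted p = 0.216), neither past the threshold. The latter was 0.28 with spike-in scaling (median of all probes tested -0.29). Parental MIA PaCa-2 exceeded parental Capan-1 by 0.55 (adjusted p = 0.0046).

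TLR3 encodes the endosomal receptor. Its relative log2 level was -3.95 and -4.08 on the parental MIA PaCa-2 arrays, a processed signal of 21.3 and 15.5, and -4.70 and -4.94 on the siRNA arrays, a signal of 9.51 and 8.44. Capan-1 had -1.77 and -1.84 on the parental arrays and -1.94 and -2.09 on the siRNA arrays. The siRNA arrays were below the parental arrays in both lines. The lowest signal that the software called well above background was 4.49 and 3.62 on the MIA PaCa-2 siRNA arrays, so that TLR3 there lay near the floor of the measurement. It fell by 0.80 on the log2 scale in MIA PaCa-2 (SE 0.118, adjusted p = 0.0406), 1.75-fold, while the difference in Capan-1 was -0.20 (95% interval -0.49 to 0.09, adjusted p = 0.520). The call in MIA PaCa-2 was lost without scaling (adjusted p = 0.112), with spike-in scaling (0.115), without the filter on dim probes (0.0900), in the fit of the MIA PaCa-2 arrays alone (0.133), with the replicate number as a block (0.0625), and when any 1 of the 8 arrays was left out, with log2 differences from -0.92 to -0.68. With normexp background correction, whose offset of 50 exceeds the signal of this probe, the difference was -0.05. At baseline TLR3 was lower in MIA PaCa-2, with a log2 difference of -2.21, or 4.62-fold (adjusted p = 1.54e-05). Fewer cells with the transcript and less transcript per cell cannot be told apart for this or any other gene here.

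EIF2AK2 encodes PKR, the kinase that stops translation. Probe 1 had relative log2 levels of 2.41 and 2.60 on the parental and 2.83 and 2.72 on the siRNA arrays of MIA PaCa-2. For Capan-1 the values were 1.91 and 1.80 on the parental and 2.03 and 2.01 on the siRNA arrays. The siRNA arrays were above the parental arrays in both lines, by 0.27 (SE 0.102, adjusted p = 0.220) for MIA PaCa-2 and 0.17 (SE 0.102, adjusted p = 0.536) for Capan-1, neither past the threshold. Probe 2, printed above with probe 1, had -1.09 and -1.16 on the parental and -0.81 and -0.94 on the siRNA arrays of MIA PaCa-2, and -1.96 and -1.95 on the parental and -1.60 and -2.09 on the siRNA arrays of Capan-1. The Capan-1 siRNA arrays of this probe lay on either side of the parental arrays. Spike-in scaling turned the Capan-1 differences to -0.12 on probe 1 and -0.18 on probe 2 (median of all probes tested -0.29). Without scaling that of probe 2 was -0.05 (median of all probes tested -0.16). Both probes were higher in parental MIA PaCa-2 than in parental Capan-1, by 0.65 (adjusted p = 0.0016) and 0.83 (adjusted p = 0.0048).

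MAVS encodes the adaptor of RIG-I and MDA5, and its 3 probes gave different orders of the cell lines. Probe 1 had 1.83 and 1.64 on the parental and 1.36 and 1.29 on the siRNA arrays of MIA PaCa-2, and 2.20 and 2.01 on the parental and 1.96 and 1.70 on the siRNA arrays of Capan-1. Probe 2 had 0.22 and 0.26 on the parental and 0.19 and 0.28 on the siRNA arrays of MIA PaCa-2, and -1.21 and -1.18 on the parental and -1.09 and -1.44 on the siRNA arrays of Capan-1. Probe 3 had -0.35 and -0.32 on the parental and -1.19 and -0.69 on the siRNA arrays of MIA PaCa-2, and -0.77 and -0.72 on the parental and -0.63 and -1.17 on the siRNA arrays of Capan-1. On probe 1 the siRNA arrays were below the parental arrays in both lines, on probe 3 in MIA PaCa-2, and on probe 2 they overlapped in both. Parental MIA PaCa-2 was lower than parental Capan-1 on probe 1 (-0.37, adjusted p = 0.0447) and higher on probe 2 (1.44, adjusted p = 1.34e-04), while the difference of 0.41 on probe 3 did not pass the threshold. Probe 2 lies upstream of the others on the plus strand of hg18, at chr20:3783323-3783382, against chr20:3795884-3795943 for probe 1 and chr20:3804703-3804762 for probe 3. After siRNA the MIA PaCa-2 differences were -0.41 (SE 0.132, adjusted p = 0.165), -0.01 and -0.61 (SE 0.225, adjusted p = 0.212) for probes 1, 2 and 3. Those of Capan-1 were -0.27, -0.07 and -0.15, and none passed the threshold in either line. By the rule that a gene's probes must not pass in opposite directions, MAVS was not called between the parental lines.

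**Figure D2:**
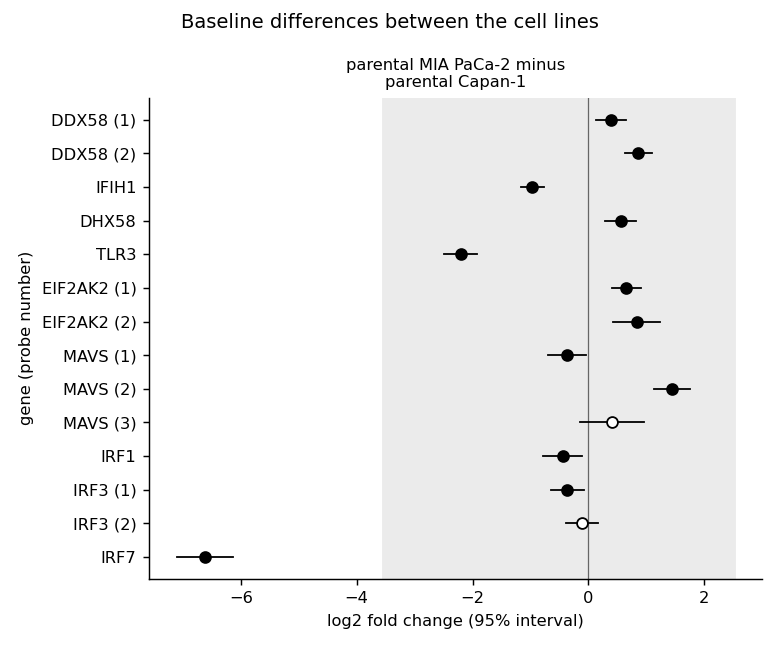
Difference between parental MIA PaCa-2 and parental Capan-1 for the 14 probes, as log2 fold change with 95% intervals from limma. Filled points passed the adjusted threshold, and the gray band holds the central 90% of all tested probes, from -3.54 to 2.52; the IRF7 point at -6.62 lies outside the band.

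IRF1 encodes an interferon-inducible factor. Its relative log2 level was -0.89 and -1.20 on the parental MIA PaCa-2 arrays and -1.56 and -1.37 on the siRNA arrays. Capan-1 had -0.66 and -0.53 on the parental arrays and -0.68 and -0.81 on the siRNA arrays. The siRNA arrays were below the parental arrays in both lines, with differences of -0.42 (SE 0.139, adjusted p = 0.172) for MIA PaCa-2 and -0.15 (SE 0.139, adjusted p = 0.685) for Capan-1, without passing the threshold. IRF1 was lower in parental MIA PaCa-2 than in parental Capan-1 (log2 difference -0.45, adjusted p = 0.0284).

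IRF3 encodes the factor that is present before infection and is activated through MAVS and TLR3. Probe 1 had 1.29 and 1.15 on the parental and 0.87 and 1.13 on the siRNA arrays of MIA PaCa-2, and 1.57 and 1.60 on the parental and 1.53 and 1.44 on the siRNA arrays of Capan-1. Probe 2 had 1.28 and 1.02 on the parental and 0.83 and 0.92 on the siRNA arrays of MIA PaCa-2, and 1.26 and 1.28 on the parental and 1.27 and 1.16 on the siRNA arrays of Capan-1. The siRNA arrays were below the parental arrays on both probes in MIA PaCa-2 and on probe 1 in Capan-1. The siRNA differences were -0.22 and -0.28 in MIA PaCa-2 (adjusted p = 0.346 and 0.244) and -0.10 and -0.05 in Capan-1, with 95% intervals in Capan-1 from -0.38 to 0.18 and from -0.33 to 0.23. Between the parental lines, probe 1 was lower in MIA PaCa-2 (-0.36, adjusted p = 0.0294) and the difference of -0.12 on probe 2 did not pass.

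IRF7 encodes the interferon-inducible factor that amplifies interferon transcription, and it separated the lines most among the 14 probes. Its relative log2 level was -4.97 and -4.55 on the parental MIA PaCa-2 arrays, a processed signal of 10.4 and 11.2, and -4.21 and -3.75 on the siRNA arrays, a signal of 13.3 and 19.2. Capan-1 had 1.80 and 1.91 on the parental arrays and 1.78 and 1.77 on the siRNA arrays, with signals of 864 to 1175. The levels of the lines did not come near each other. Parental MIA PaCa-2 was 98.1-fold lower, a log2 difference of -6.62 (SE 0.198, adjusted p = 1.69e-06), with both of its arrays close to the floor. With normexp correction the log2 difference was -4.06. After siRNA the MIA PaCa-2 arrays were above the parental arrays, with a difference of 0.78 (95% interval 0.30 to 1.26, adjusted p = 0.107) that did not pass the threshold. In Capan-1 the difference was -0.08 (95% interval -0.56 to 0.41).

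Over all members, 12 of the 14 probes passed between the parental lines, 6 higher and 6 lower in MIA PaCa-2, against 70.2% of 24968 probes tested, 39.2% higher and 31.0% lower, so that a difference between the lines was common on these arrays. Parental arrays did not overlap for 13 of the 14, against 86.4% of all probes tested. The median absolute log2 difference between the lines was 0.60 over the 14 probes and 0.77 over all probes tested. The calls of DDX58 probe 1, MAVS probe 1, IRF1 and IRF3 probe 1 were lost in 5, 9, 6 and 6 of 19 alternative settings. Among these settings were no scaling between arrays and spike-in scaling.

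Counted over the siRNA comparisons, both siRNA arrays lay outside both parental arrays for 11 probes in MIA PaCa-2, 3 above and 8 below, where 51.2% of all probes tested did so, 28.0% above and 23.2% below. In Capan-1 this held for 10 probes, 5 above and 5 below, against 54.2% of all probes and 27.1% each way. The median siRNA difference of the 14 probes was -0.25 for MIA PaCa-2 and -0.06 for Capan-1, with 0.02 and -8.98e-04 over all probes tested. For MIA PaCa-2 it moved to -0.13 with normexp correction and -0.46 without scaling (0.08 and -0.19 over all probes tested). For Capan-1 it moved to -0.22 without scaling and -0.34 with spike-in scaling (-0.16 and -0.29 over all probes tested). With 1 array left out it ran from -0.32 to -0.15 for MIA PaCa-2 (-0.15 without parental replicate 1, -0.16 without siRNA replicate 1) and from -0.12 to 0.11 for Capan-1, where it was above 0 without siRNA replicate 2. In MIA PaCa-2, 8 of the 14 had an unadjusted limma p under 0.05, 2 higher and 6 lower, against 20.5% of all probes, 10.6% higher and 9.87% lower. In Capan-1 the 4 on the higher side, both DDX58 probes, IFIH1 and DHX58, stood against 5.85% of all probes higher.

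**Figure D3:**
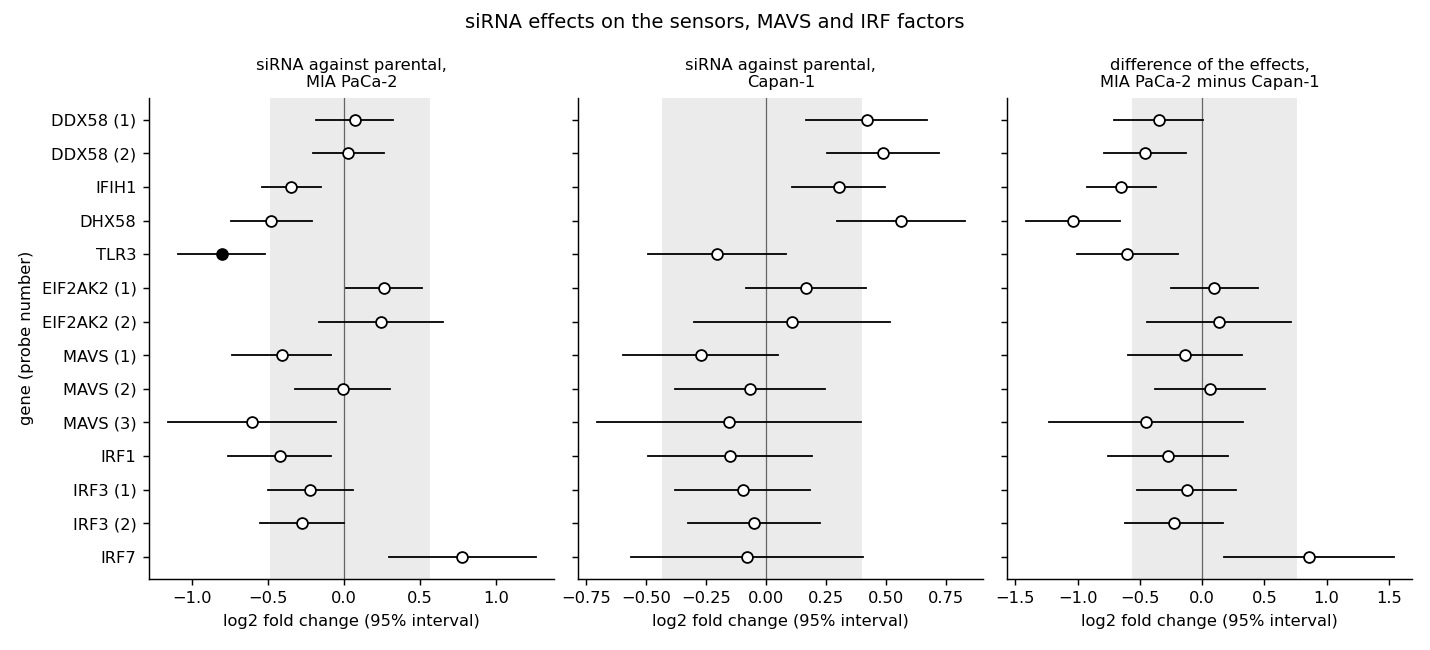
siRNA effects on the 14 probes as log2 fold change with 95% intervals from limma, for MIA PaCa-2, Capan-1 and the difference between them. The filled point, TLR3 in MIA PaCa-2 at -0.80, passed the adjusted threshold, gray bands hold the central 90% of all tested probes, and DHX58 and IFIH1 lie left of 0 in MIA PaCa-2 and right of 0 in Capan-1.

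Whether the siRNA effects differed between the lines was tested as an interaction, MIA PaCa-2 minus Capan-1. None of the 14 probes passed, and 2 of 25554 probes tested did (0.00783%). At an unadjusted limma p under 0.05 there were 5 of the 14, 1 higher and 4 lower, against 11.1% of all probes, 6.19% higher and 4.88% lower. DHX58 had the lowest adjusted p of the members, with a difference of -1.04 (SE 0.155, adjusted p = 0.143). For IFIH1 the difference was -0.65 (SE 0.112, adjusted p = 0.159). TLR3 had -0.60 (adjusted p = 0.309) and IRF7 0.86 (adjusted p = 0.360), so that the fall of TLR3 in MIA PaCa-2 is not shown to differ from the value in Capan-1. Only DHX58 passed under an alternative, with normexp correction (-0.96, adjusted p = 0.0129) and with the spread fitted as a trend of intensity (-1.04, adjusted p = 0.0478). The comparisons of each line enter this test with their own parental arrays, which they share with the comparison of the parental lines.

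An interval rule taken from the study's methods was applied to single probes, without its criteria on several probes per gene. It calls a probe whose ratio in both replicates lies outside an interval holding 99% of the ratios between the parental arrays at that intensity. Each siRNA array was set against the parental array of the same replicate number. This pairing and the intensity window were chosen here, because the study's methods do not give them, and the calls depend on both. DHX58 in Capan-1, with 1 probe where those criteria ask for at least 2, was the only one called, with ratios of 0.48 and 0.64 against limits of 0.40 and 0.47 (1.99% of all 23343 probes were called, and 1.17% higher). In MIA PaCa-2 none of the 14 was called, and 0.588% of 23653 probes were. TLR3 in MIA PaCa-2 had ratios of -0.75 and -0.86 against limits of 2.06 and 1.94, well inside the interval. IRF7 there had 0.77 and 0.79 against 1.84 and 1.72. At the median intensity the limit was 0.81 for MIA PaCa-2 and 0.36 for Capan-1, as the parental arrays of MIA PaCa-2 differed more from each other. The DHX58 call was not made without scaling between arrays.

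**Figure D4:**
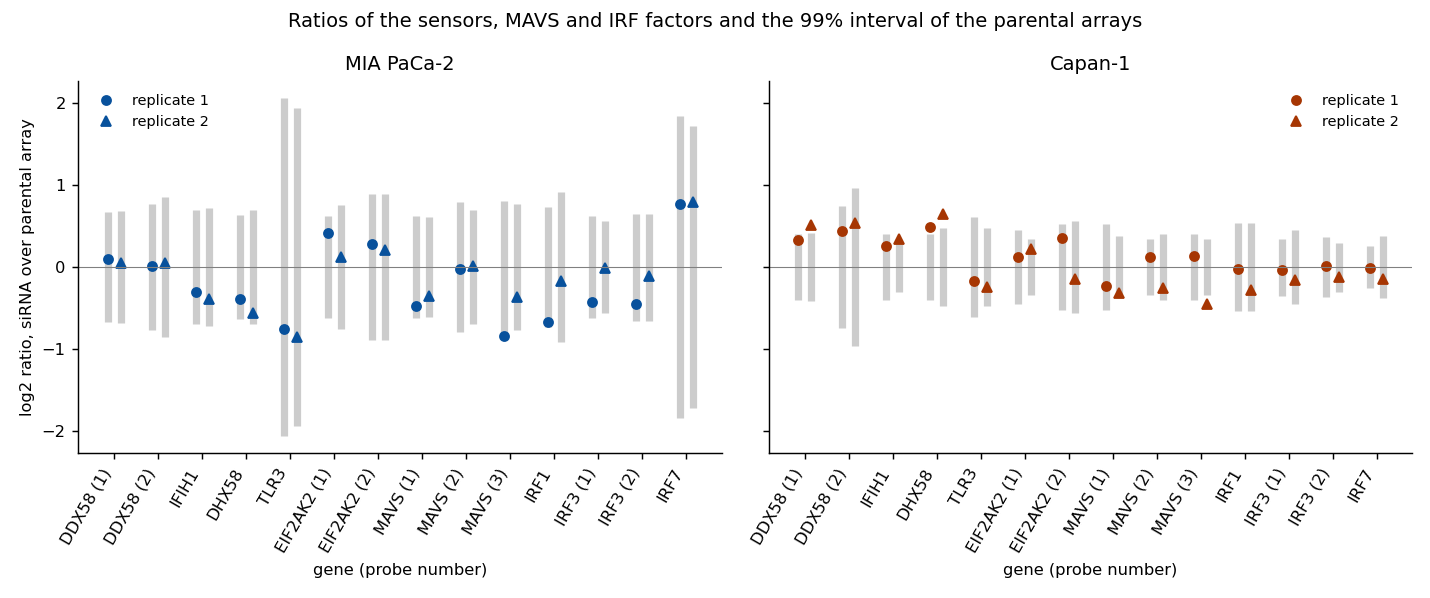
log2 ratio of siRNA over parental array for the 14 probes, replicate 1 (circles) and replicate 2 (triangles). Gray bars are the 99% interval of both parental arrays at that intensity; in Capan-1 both DHX58 ratios (0.48 and 0.64) lie above it, and the intervals of TLR3 and IRF7 in MIA PaCa-2 reach beyond 1.7 on either side.

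The other genes of the pathway were read from 6 lists. Among 13 other IRF and STAT genes, 15 probes in all, none passed after siRNA in either line. For Capan-1, 10 of 13 probes tested were above 0, with a median of 0.05 against -8.98e-04 over all probes, and 1 had an unadjusted limma p under 0.05. IRF9, a DNA-binding factor of the interferon response, had 0.70 there (adjusted p = 0.235), with -1.63 and -1.21 on the parental arrays and -0.81 and -0.62 on the siRNA arrays. STAT4 had -0.34 in Capan-1, with the siRNA arrays below the parental arrays. In MIA PaCa-2 the 10 probes tested had a median of -0.06. IRF2 was the widest at -0.54 (adjusted p = 0.253), but it was not well above background on every array of the line. Among probes that were, with arrays apart, the widest were IRF5 at -0.38 (adjusted p = 0.0902), STAT5A at -0.34 and STAT2 at 0.29. Between the parental lines 12 of 13 probes tested passed, 10 of them lower in MIA PaCa-2, against 70.2% of all probes and 31.0% lower. IRF8 was 27.1-fold lower there and STAT4 3.95-fold, both against the floor. STAT5A and STAT6 had log2 differences of -2.03 and -1.93.

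The list of interferon-stimulated targets held 60 probes of 48 genes. A difference of its counts between the lines was not tested. In the interaction, MIA PaCa-2 minus Capan-1, none of 57 probes tested passed, and the median was -0.18. At an unadjusted limma p under 0.05, 3 were higher and 17 lower, against 6.19% and 4.88% of all probes. In Capan-1 none of 57 probes tested passed, yet 20 had an unadjusted limma p under 0.05 on the higher side and 1 on the lower (5.85% and 6.6% of all probes), and 42 of 57 were above 0 with a median of 0.14. The count past the threshold depended on the processing, with 12 for normexp correction, 11 for the intensity trend, 5 for quantile normalization, 2 among probes above background on all 8 arrays, 1 without scaling and 1 with spike-in scaling, 1 without siRNA replicate 1 and 3 without siRNA replicate 2 of Capan-1. The widest were CXCL10 at 2.40 (adjusted p = 0.117), RSAD2 at 1.74 (adjusted p = 0.117) and CXCL11 at 1.70 (adjusted p = 0.138). All 3 passed with normexp correction, at 1.30, 0.89 and 1.10 (adjusted p = 1.52e-04, 0.0012 and 7.73e-04), and with quantile normalization. CXCL10 also passed without scaling, with spike-in scaling, with the trend and without siRNA replicate 2, and RSAD2 with the trend, among probes above background on all 8 arrays and without siRNA replicate 2. CXCL10, a chemokine, had -3.42 and -3.36 on the parental Capan-1 arrays and -1.01 and -0.96 on the siRNA arrays. RSAD2, the antiviral protein viperin, had -3.58 and -3.61 against -1.83 and -1.89. For MIA PaCa-2, 2 of 48 probes tested passed, IFI27 with a rise of 2.09 (adjusted p = 0.0056) and IFI6 with a rise of 0.82 (adjusted p = 0.0396), and the median was -0.06. This stood against 1.92% of all probes called and 0.982% higher, and at an unadjusted limma p under 0.05 there were 7 higher and 7 lower. The count was 5 with normexp correction, 7 with the trend and among probes above background on all 8 arrays, 1 without scaling, with spike-in scaling, without the filter, with the replicate block and with any array left out, and 0 with only the arrays compared. PLSCR1 had 0.59 (adjusted p = 0.0831). In Capan-1 the siRNA arrays were also above the parental arrays for IFI6, by 0.52 (adjusted p = 0.257), and for IFI27, by 0.21 (adjusted p = 0.443). The interaction was 0.30 for IFI6 (adjusted p = 0.558) and 1.88 for IFI27 (adjusted p = 0.0859), so that neither rise is shown to differ between the lines. The IFI6 call was lost under the same settings as that of TLR3, apart from normexp correction, and that of IFI27 in the fit of the MIA PaCa-2 arrays alone (adjusted p = 0.0537). In parental cells CXCL11, CXCL10 and SAMD9L lay under the detection call in MIA PaCa-2. Against the floor they were 12.6-fold, 6.34-fold and 7.09-fold lower than in Capan-1. SAMD9 also lay under the call in MIA PaCa-2, and IFI27 had a log2 difference of -5.00.

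Interferons, their receptors and Janus kinases, 25 probes of 21 genes, had no call after siRNA in either line, although 2 probes passed in MIA PaCa-2 without its siRNA replicate 2. IL29, the type III interferon IFNL1, had -3.21 and -3.14 on the parental Capan-1 arrays and -2.14 and -2.26 on the siRNA arrays, a difference of 0.98 (SE 0.119, adjusted p = 0.138) that passed with normexp correction (0.49, adjusted p = 0.0408). IFNB1, an interferon gene known to be induced through these sensors, had no probe well above background on both arrays of a group in MIA PaCa-2 or after siRNA in Capan-1, but was well above background on both parental Capan-1 arrays. This describes detection calls, which 1 array near the floor can change, and not a difference in level past the threshold. SOCS1 and IFNAR2 had 0.53 and -0.42 in Capan-1, and IL28RA, SOCS1 and JAK1 had 1.20, 0.43 and 0.24 in MIA PaCa-2. Other probes gave 0.06 and 0.09 for IFNAR2 in Capan-1 and -0.71 for IL28RA in MIA PaCa-2, so that neither gene has a direction there. The IL28RA value was 0.54 without siRNA replicate 1 of MIA PaCa-2 and 1.85 (adjusted p = 0.0371) without siRNA replicate 2, and that of SOCS1 was 0.76 and 0.10. Between the parental lines 1 IL28RA probe was 2.96-fold lower in MIA PaCa-2 against the floor, and another had a log2 difference of -2.24 (adjusted p = 0.0136). The remaining IL28RA probe pointed the other way, at 1.00, and did not pass (adjusted p = 0.0768). IFNGR1, IFNAR2 and JAK1 had log2 differences of -1.91, -1.48 and -1.42, and SOCS1 was higher by 1.61. The IL28RA and IFNAR2 values of these comparisons come from different probes of each gene.

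The list of Dicer and Argonaute proteins held 16 probes of 11 genes. DICER1, the nuclease that makes short duplexes, rose in MIA PaCa-2 by 0.70 (SE 0.106, adjusted p = 0.0423), the only probe of the list past the threshold. Its relative log2 level was -0.50 and -0.32 on the parental MIA PaCa-2 arrays and 0.36 and 0.22 on the siRNA arrays. Capan-1 had -0.45 and -0.49 against 0.29 and 0.41, a difference of 0.82 that did not pass (adjusted p = 0.138), but did with normexp correction (0.68, adjusted p = 0.0102) and with the trend (adjusted p = 0.0352). The siRNA arrays were above the parental arrays in both lines. The MIA PaCa-2 call was lost under the same settings as that of IFI6. EIF2C1 and TNRC6B had 0.39 and 0.27 in MIA PaCa-2, and TNRC6A and EIF2C4 0.52 and 0.39 in Capan-1. The other EIF2C1 probe had 0.02 in MIA PaCa-2. The medians of the 16 probes were 0.14 for MIA PaCa-2 and 0.13 for Capan-1, against 0.02 and -8.98e-04 over all probes. Between the parental lines XPO5, 1 TNRC6C probe and EIF2C4 were higher in MIA PaCa-2 by 1.05, 0.66 and 0.65. The other TNRC6C probe pointed the other way, at -0.37 (adjusted p = 0.104). EIF2C2 and DGCR8 were lower in MIA PaCa-2, with log2 differences of -0.79 and -0.67.

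Other nucleic acid sensors and relatives of PKR, 25 probes of 20 genes, had no call after siRNA. IFI16, DHX9 and EIF2AK3 had 0.56, -0.37 and 0.34 in MIA PaCa-2, and ZBP1, NOD2 and DDX60 had -0.52, -0.47 and 0.46 in Capan-1. Against the floor, AIM2 was 64.9-fold higher and ZBP1 2.94-fold lower in parental MIA PaCa-2 than in parental Capan-1. IFI16 was higher by 1.75 on the log2 scale in MIA PaCa-2 and NOD2 lower (-0.78). One NLRP1 probe was 6.57-fold higher there against the floor and the other lower (-0.92), so that the gene has no direction. Cofactors, adaptors and kinases of RNA sensing, 33 probes of 27 genes, had no call after siRNA either, with medians of -0.01 for MIA PaCa-2 and 0.01 for Capan-1. PCBP2, AZI2 and TICAM2 had 0.38, -0.33 and -0.32 in MIA PaCa-2, and ADAR, TRAF3 and IKBKE had -0.37, -0.32 and -0.31 in Capan-1. Other PCBP2 probes had -0.08 and 0.09 in MIA PaCa-2, so that the gene has no direction there. In parental MIA PaCa-2, TNFAIP3, IKBKE and PPP1R15A had log2 differences of -5.87, -2.14 and -1.65, and RNF125 and CYLD were higher by 2.89 and 2.05, CYLD being well above background on 1 of the 2 parental Capan-1 arrays.

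The genes whose levels over the 8 arrays were most like those of the members were found among 20291 probes well above background and free of outlier flags on all 8 arrays. For IRF7 they were CXorf48 and TFF3 (Pearson r 1.00 and 0.999), for TLR3 NIPAL3 and SYT17 (both 0.999), and for IFIH1 PSMA5 and E2F7 (0.998 and 0.997). The 8 points are 2 cell lines on 2 slides, so that any probe differing between the lines can correlate highly, and no test is given. The DHX58 probe followed NKTR and MARS (0.960 and 0.953), and DDX58 probe 1 followed ZC3HAV1 (0.968), itself a sensor of viral RNA, and LOC390834 (0.967). Likeness for the others ran from 0.928, MAVS probe 3 with HSF4, to 0.999, MAVS probe 2 with OR52K2.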

How the data were processed

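RNA of MIA PaCa-2 and Capan-1, parental or given HOXB7 siRNA, was hybridised to 8 one-color Agilent arrays, 2 per group. The authors read them with Feature Extraction 9.5.3, per the submitters' processing notes, and deposited the background-subtracted intensity of each spot and a table of its log2, not scaled between arrays. Spots with outlier flags were left out, spots of a probe averaged, and the 75th percentile of each array subtracted from the log2 intensity. The deposited log2 table gave the same values.

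The members and lists were chosen with earlier results of these data known. Group means were fitted with limma 3.58.1 (lmFit, eBayes) in R 4.3.3, two-sided. Probes entered a comparison if 1 or more of its groups had them well above background on each of its 2 arrays. Intervals, lists and figures used Python 3.11.15. Fits were tested on simulated data. The 99% interval used a window of 500 probes. List genes are named when past the threshold (at most 5 per list and comparison) or, per line, when among the 3 widest siRNA differences with arrays apart. These 3 were taken from probes well above background on every array of the line, and IRF2 is given in addition. Some genes of the lists count in their totals and are not reported here by name. For a group under the detection call, folds against the floor use the lowest signal called well above it, or the probe's own where higher. They are not strict lower bounds, because some probes with more signal than the floor were not called. Precision is limited by 2 arrays per group. Alternatives were normexp, quantile, no and spike-in scaling, outlier spots, the value table, filters, the arrays compared alone, replicate block, trend and each array left out.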

Additional observations from a re-analysis of the deposited data

How the results depend on the processing

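After siRNA, the number of members past the threshold was 1 for MIA PaCa-2. It was 2 with normexp correction (DHX58 and MAVS probe 1), 3 with an intensity trend (IFIH1, DHX58 and TLR3), and 0 without scaling, with spike-in scaling, without the filter, with only the arrays compared and with any array left out (0 to 0). For Capan-1 it was 0 under all 19 alternatives, and between the parental lines 8 to 12. For the difference it was 1 rather than 0 with normexp and with the trend, DHX58 in each. The interval rule for Capan-1 called 5 members at 95%, 2 with a window of 200 probes and 0 without scaling, against 1. HOXB7 in MIA PaCa-2 had -0.098 with normexp, where the offset exceeds its signal, and -3.32 without the filter and with only the arrays compared (adjusted p = 0.0515 and 0.111). With an array left out it had -3.68 to -2.95, and the call was lost without siRNA replicate 1 of MIA PaCa-2 (adjusted p = 0.0504) and without any 1 array of Capan-1 (0.0582 to 0.082). In Capan-1 HOXB7 passed with normexp (-0.66), without scaling (-2.77), with spike-in scaling (-2.90) and with the trend (-2.62), and had -2.84 to -2.39 with an array left out, passing without siRNA replicate 2. Its difference between lines turned to 0.56 with normexp.

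Reversed signs were as follows, none of them past the threshold. Without scaling, DDX58 in MIA PaCa-2 had -0.14 (probe 1) and -0.19 (probe 2), and with spike-in scaling -0.019 and -0.061. EIF2AK2 in Capan-1 had -0.12 (probe 1) and -0.18 (probe 2) with spike-in scaling and -0.049 (probe 2) without scaling. With normexp, ZBP1, NOD2 and STAT4 in Capan-1 had 0.011, 0.034 and 0.043, and the TLR3 difference between lines was 0.053. That difference was 0.056 for MAVS probe 1 and 0.071 for IRF3 probe 1 with spike-in scaling. With an array left out, the siRNA values in MIA PaCa-2 ran from -0.041 to 0.10 for DDX58 probe 2 and from -0.047 to 0.037 for MAVS probe 2. Those of Capan-1 ran from -0.14 to 0.36 for EIF2AK2 probe 2, from -0.24 to 0.11 for MAVS probe 2, from -0.42 to 0.12 for MAVS probe 3 and from -0.11 to 0.0078 for IRF3 probe 2. The differences between lines ran from -0.11 to 0.38 for EIF2AK2 probe 2, from -0.11 to 0.24 for MAVS probe 2 and from -0.25 to 0.0062 for IRF3 probe 1, and the parental difference of IRF3 probe 2 from -0.25 to 0.015. The cause was not tested.

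Over all probes, calls in MIA PaCa-2 numbered 455, and 995 with normexp, 990 among probes above background on all 8 arrays, 1276 with the trend, 48 without scaling, 30 with spike-in scaling, 10 without the filter, 0 with only the arrays compared and 3 to 742 with an array left out. Without scaling 14 were higher and 34 lower, against 233 and 222. Calls in Capan-1 numbered 1, and 0 to 81 under other settings and 0 to 157 with an array left out. For the difference they numbered 2, and 0 to 51, and 1 to 313 with an array left out. Without scaling the median of all probes moved to -0.19 for MIA PaCa-2 and -0.16 for Capan-1, and with spike-in scaling to -0.07 and -0.29.

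Same-numbered arrays shared little deviation, with correlations of 0.0231 for MIA PaCa-2 and 0.0382 for Capan-1. This cannot show whether samples were handled in pairs, which the labels do not say. With the replicate number as a block the count of members past the threshold was 0 for MIA PaCa-2, where TLR3 had an adjusted p of 0.0625, the calls of IFI6 and DICER1 were lost (0.0625 and 0.0846), and 19 rather than 455 probes passed there.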
